A study of Bos taurus with 30 samples.

Results

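Open chromatin of bovine GV oocytes was compared with that of untreated 4-cell embryos. The libraries are the 6 of 30 in the series whose labels give the stage as germinal vesicle or as 4-cell with control treatment, 3 of each. The series holds ATAC-seq peak lists of oocytes, preimplantation embryos, the inner cell mass (ICM) and cultured stem cells from embryos (ESC), and of transcription blocked embryos (TBE), which were cultured with the RNA polymerase II inhibitor α-amanitin. The question was how much of the oocyte landscape is found again before major embryonic genome activation (EGA), which in cattle takes place at the 8-cell stage.

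GV oocytes were taken from aspirated ovarian follicles and collected before maturation. For the 4-cell embryos, oocytes were matured in culture and fertilized in vitro with thawed semen of a Holstein bull, and embryos were collected 2 days post-insemination, without α-amanitin. Each library is a pool of at least 500 cells, and the 3 libraries of a stage come from separate collections, so that a value describes a mixture of individuals. Oocytes come from females whereas pooled embryos are of both sexes, and so X dosage and X accessibility cannot be told apart.

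The GV oocyte is arrested in meiotic prophase with a large nucleus, the germinal vesicle, and its genome falls silent as the oocyte completes its growth. After fertilization the sperm genome is repackaged from protamines to histones, and the early cleavages run largely on maternal RNA and protein. ATAC-seq inserts sequencing adapters where DNA is accessible to a transposase, as at active promoters and enhancers.

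Each deposited list gives the position of every ATAC-seq peak on ARS-UCD1.2, its fold enrichment, which compares tags at the peak with the local background of its own library and is a mean over the peak, and its −log10 p and −log10 q. The GV oocyte lists held 40132, 42596 and 44678 peaks and the 4-cell lists 42012, 22983 and 14355. Reads per library are not given in the sources used here, but a background level, the chance pileup at a position, grows with the number of tags and could be recovered from peaks with a whole-number pileup. It was 0.247, 0.248 and 0.507 in GV oocytes and 0.494, 0.453 and 0.223 in 4-cell embryos, so that each stage had libraries of higher and of lower depth.

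The lists of 4-cell embryos differed widely in length, and 4-cell replicate 1, the longest, stood apart by the Jaccard index. Its Jaccard index, the shared length of a pair of lists divided by their joint length, was 0.273, 0.235 and 0.230 with the GV oocyte lists but 0.181 and 0.117 with the other 4-cell lists. For 4-cell replicate 2 the mean index was 0.153 with GV oocytes and 0.162 with the other 4-cell lists, and for 4-cell replicate 3 it was 0.102 and 0.130. This index falls where lists differ in length. By the overlap coefficient, which divides by the shorter list, the order was the opposite, with 0.462 and 0.506 between 4-cell replicate 1 and the other 4-cell lists and 0.387 to 0.433 with GV oocytes. By the same coefficient, 4-cell replicates 2 and 3 had 0.360 with each other, below the 0.387 to 0.468 of either with GV oocytes. The label of 4-cell replicate 1 was taken as deposited, and what sets it apart was not tested. For the main results, values without 4-cell replicate 1 are given as well. The mean Jaccard index was 0.311 among GV oocyte lists, 0.147 among 4-cell lists and 0.167 between the stages, and the mean overlap coefficient was 0.502, 0.443 and 0.423, so that the order of the last 2 depends on the measure. Over all pairs the Jaccard index was higher within stages than between them by 0.0619. This was the largest difference among the 10 divisions of the libraries into 3 and 3 (exact permutation test, two-sided, p = 0.1). Without GV oocyte replicate 1, 2 or 3 it was 0.0244, 0.0186 and 0.0198 and no longer the largest, and without 4-cell replicate 1 the difference was 0.141.

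Peaks covered less of the genome in 4-cell embryos on average, but the libraries of the stages overlapped. Covered lengths were 20.7, 20.5 and 24.2 Mb in GV oocytes and 21.2, 10.5 and 5.56 Mb in 4-cell embryos. The ratio of the means, 0.570 (0.833 with the same number of top peaks in each list), did not separate the stages (exact permutation test, two-sided, p = 0.3, n = 3 each), and 3 libraries against 3 cannot go below p = 0.1. Without 4-cell replicate 1 the ratio was 0.369, and both remaining 4-cell libraries lay below every GV oocyte library. Such p-values measure the spread between pools, which may be technical.

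Width followed the same order. The median peak was 381, 342 and 416 bp wide in GV oocytes and 377, 338 and 262 bp wide in 4-cell embryos, a difference of -54 bp (exact permutation test, two-sided, p = 0.2). With the same number of top peaks in each list it was -90 bp. The stages overlapped in both, but in the full lists did not without 4-cell replicate 1 (-79.7 bp) or without GV oocyte replicate 2 (-72.8 bp), and without 4-cell replicate 3 or GV oocyte replicate 3 the difference was -22.2 and -35.8 bp. Peaks of at least 1000 bp made up 10.1% ± 1.55 of the GV oocyte lists and 6.03% ± 2.94 of the 4-cell lists (mean ± SD, n = 3 each). The median fold enrichment of a whole list was similar, at 4.11, 4.01 and 3.80 in GV oocytes and 3.93, 3.80 and 3.81 in 4-cell embryos.

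Libraries of like background level were also compared with each other, which was chosen after the values had been seen. GV oocyte replicate 3 and 4-cell replicates 1 and 2 had the higher level, and their covered lengths had a ratio of 0.656. GV oocyte replicates 1 and 2 and 4-cell replicate 3 had the lower level, with a ratio of 0.270. In each comparison the 4-cell libraries covered less and had narrower median peaks, by -58.5 and -99.5 bp.

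**Figure D1:**
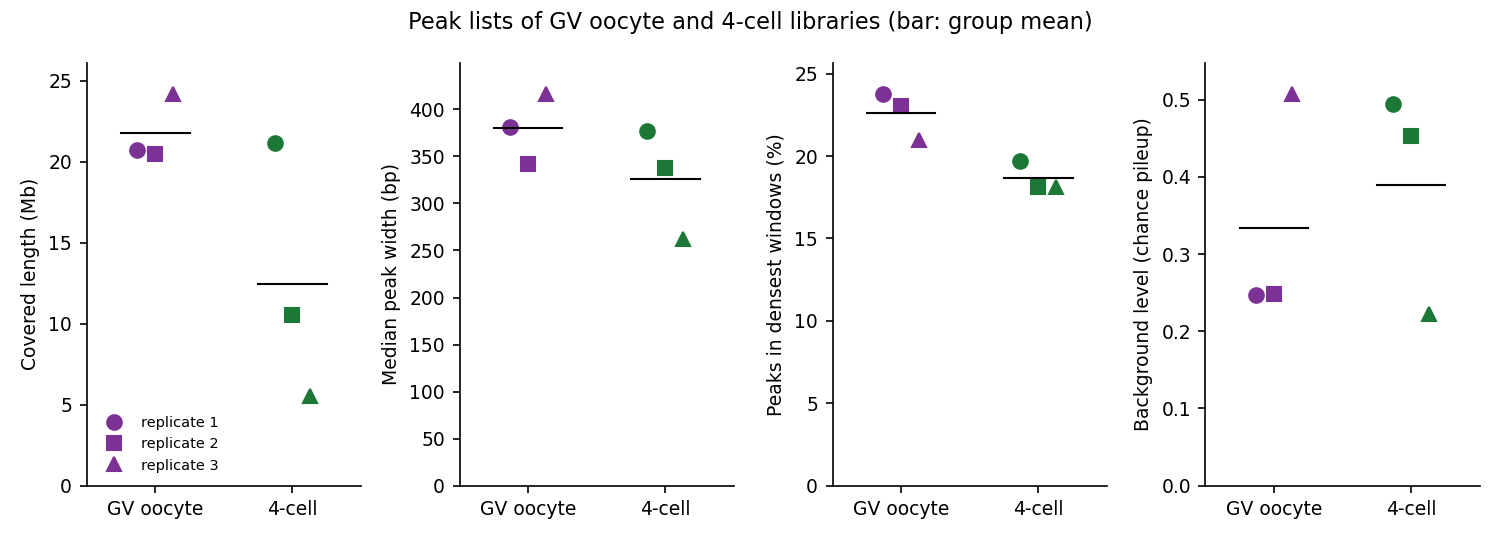
Covered length (Mb), median peak width (bp), peaks in the most densely covered 1-Mb windows (% of peaks) and background level (pileup expected by chance) of each library, with replicates 1, 2 and 3 as circles, squares and triangles and the mean of each stage as a bar (n = 3). Covered length spreads from 5.56 to 21.2 Mb among 4-cell libraries, and the share of peaks in dense windows is the measure shown in which the stages do not overlap.

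Regions of a stage were defined as merged peaks found in at least 2 of its 3 libraries, and regions with at least 1 bp in common were taken as shared. Of the 33347 GV oocyte regions, 11511 (34.5%, exact 95% interval 34.0% to 35.0%) were shared with 4-cell embryos and 21836 were absent. In the other direction, 11487 of the 15117 4-cell regions (76.0%) lay on a GV oocyte region and 3630 (24.0%) did not. The intervals cover counting error only, and neighbouring regions are not independent replicates.

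The counts rested on the libraries used. Shared regions numbered 5287 without 4-cell replicate 1 and 6780 without 4-cell replicate 2, and 4-cell regions absent from GV oocytes numbered 795 and 1273. GV oocyte regions absent from 4-cell embryos numbered 14012, 13287 and 13716 without GV oocyte replicates 1, 2 and 3. The share of 4-cell regions that lay on a GV oocyte region was 86.9%, 84.2% and 80.1% when the regions came from 2 libraries, without 4-cell replicates 1, 2 and 3. With each list limited to its 14355 top peaks by −log10 p, 6229 GV oocyte regions were shared, 6076 were absent and 3028 4-cell regions lay outside GV oocyte regions.

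Shared regions were wider, stronger and more often repeated between libraries at both stages. In GV oocytes, shared regions had a median width of 857 bp and a median fold enrichment of 4.85, against 603 bp and 3.99 for absent regions. In 4-cell embryos the medians were 720 bp and 4.49 for shared regions and 500 bp and 3.89 for those absent from GV oocytes. A peak in all 3 libraries of their own stage was found for 86.5% of the shared and 44.4% of the absent GV oocyte regions, and for 45.9% of the shared and 12.5% of the absent 4-cell regions. By length, shared regions made up 40.8% of the GV oocyte and 80.8% of the 4-cell landscape. The order was also found without 4-cell replicate 1, with medians of 893 bp and 5.28 for shared and 658 bp and 4.09 for absent GV oocyte regions.

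Many regions counted as absent still had a peak in at least 1 library of the other stage. Among the 21836 absent GV oocyte regions, 9104 (41.7%) overlapped a 4-cell peak, some of them in more than 1 library. Of these 9104, 7786 overlapped 4-cell replicate 1, 1028 replicate 2 and 451 replicate 3. That left 12732 GV oocyte regions (38.2% of all) with no peak in any 4-cell library, while 5270 (15.8%) had a peak in all 3. Of the 4-cell regions, 9898 (65.5%) had a peak in all 3 GV oocyte libraries and 2447 in none of them.

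To learn how many regions a further library of the same stage would miss, each library was held out in turn and the remaining pair of its stage defined the regions by their common peaks. Held-out GV oocyte libraries had a peak at 80.4%, 82.2% and 80.7% of GV oocyte regions, and 4-cell libraries at 67.1%, 40.5% and 27.6%. Every 4-cell library lay below every held-out GV oocyte library, by -36.0 percentage points on average. A two-sided permutation test over all relabellings gave p = 0.1, the smallest for 3 against 3. It relabelled finished percentages and did not rebuild the regions, which come from GV oocyte lists. The values are therefore not interchangeable, and p is only a guide. With the same number of top peaks in each list the difference was -20.9 points, and the groups did not overlap there either.

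The reverse comparison gave a different picture. Held-out 4-cell libraries had a peak at 92.3%, 70.8% and 46.5% of 4-cell regions, whereas GV oocyte libraries had a peak at 83.9%, 82.1% and 82.3%. GV oocyte libraries covered the 4-cell regions more often on average than held-out 4-cell libraries did, by 12.9 points. The groups overlapped (same two-sided permutation test, with the same limit, p = 0.4). With the same number of top peaks in each list the difference was 0.260 points, and under a stricter −log10 q of 3 or more 19.4 points. Without 4-cell replicate 1 or 3 each set of 4-cell regions comes from a single list, a looser definition, and the difference was then 14.4 points with no overlap and 4.98 points.

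Recovery of the oocyte landscape depended steeply on strength. GV oocyte regions were divided into 5 equal bins by their mean fold enrichment in GV oocytes. From the weakest to the strongest bin, the share with a peak went from 32.8% to 88.8% in 4-cell replicate 1, from 13.5% to 66.5% in replicate 2 and from 7.35% to 49.8% in replicate 3. Each of the 3 libraries found more regions in every stronger bin. In the strongest bin 4-cell replicate 1, at 88.8%, came close to the 8-cell libraries, which had a peak at 90.7%, 89.8% and 90.6% of these regions, while in the weakest bin 8-cell libraries had 42.7%, 36.5% and 38.8%.

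Width showed the same order, from 37.0% to 73.5% in 4-cell replicate 1, 15.7% to 46.0% in replicate 2 and 10.0% to 32.3% in replicate 3 between the narrowest and the widest bin. The order by strength was also found among regions of like width. Within the middle bin of width, 28.7% of the weakest and 96.6% of the strongest regions had a peak in 4-cell replicate 1, 12.3% and 78.1% in replicate 2 and 6.30% and 59.2% in replicate 3 (1334 regions each). The 4-cell regions behaved alike in the other direction, with a peak in the 3 GV oocyte libraries at 54.2%, 51.6% and 52.7% of the weakest and 94.0%, 92.4% and 92.5% of the strongest 4-cell regions.

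**Figure D2:**
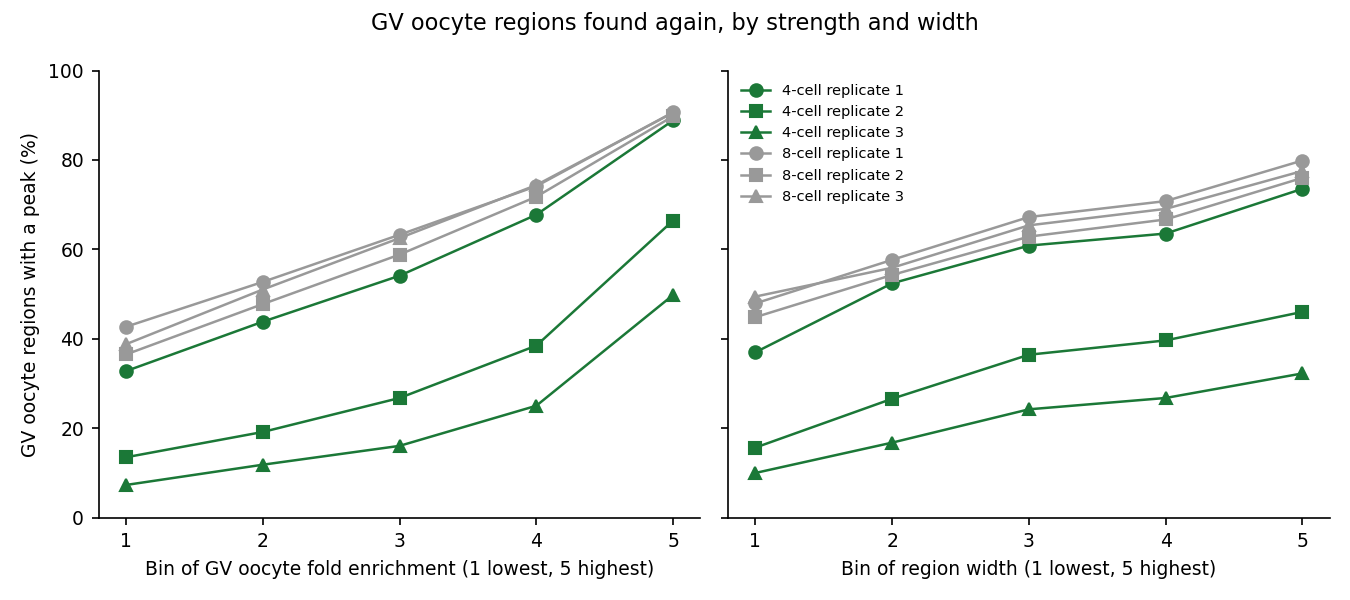
Share of GV oocyte regions with a peak (%) in each 4-cell library (green) and 8-cell library (grey), over 5 equal bins of mean GV oocyte fold enrichment (left) and of region width (right). Each line is a library, and the 4-cell lines run from 7.35%, 13.5% and 32.8% in the weakest bin to 49.8%, 66.5% and 88.8% in the strongest.

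Regions with a peak in every library of both stages were taken next. Peaks of the 6 libraries merged into 104929 regions, of which 4982 had a peak in all 6 libraries. Of these, 8.81%, 11.6% and 36.5% had a peak in the 2-cell libraries. On chromosomes 1 to 29 and X, the region with the largest mean over the 6 libraries, chr17:5546502-5546993, had a fold enrichment of 18.0, 17.2 and 17.6 in GV oocytes and 17.1, 17.2 and 17.6 in 4-cell embryos, with a −log10 p of at least 129 in each library. Next came chr9:20771811-20772101 (17.4 ± 1.65) and chr1:6042796-6043218 (17.3 ± 0.935; mean ± SD, n = 6). These 3 regions had a peak in all 30 libraries of the series, 2-cell embryos and TBE included. Their values lay near the top of the scale, since the highest fold enrichment of a list was between 17.3 and 20.3 in all 30 libraries, and so their likeness between stages shows no stability.

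Over all 4982 regions, the median fold enrichment was 5.61, 5.25 and 5.01 in GV oocytes and 5.63, 4.44 and 4.27 in 4-cell embryos (exact permutation test, two-sided, p = 0.4). The median −log10 p was 9.03, 7.77 and 8.10 against 9.84, 6.00 and 5.49. Peaks covered a median of 702.5, 611 and 719 bp of a region in GV oocytes and 647, 462 and 328 bp in 4-cell embryos. By each of these measures 4-cell replicate 1 lay within or above the range of GV oocytes, and 4-cell replicates 2 and 3 lay below every GV oocyte library. Without 4-cell replicate 3 there were 8839 regions with a peak in every remaining library.

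The order of strength at these regions was compared next. Across the 4982 regions, log2 fold enrichment of 4-cell replicate 1 had a Pearson r of 0.69, 0.61 and 0.66 with the GV oocyte libraries, where GV oocyte libraries had 0.67, 0.69 and 0.67 with each other. For 4-cell replicate 2 it was 0.49, 0.51 and 0.56 with GV oocytes, and for 4-cell replicate 3 it was 0.42, 0.44 and 0.47. Among 4-cell libraries r was 0.63 for replicates 1 and 2, 0.51 for 1 and 3 and 0.61 for 2 and 3. Replicates 2 and 3 thus had a higher r with each 4-cell than with each GV oocyte library, and replicate 1 did not. These values describe regions that share libraries and had to pass the peak threshold 6 times. Of the 100, 500 and 1000 strongest regions of each stage by mean fold enrichment, 60, 232 and 544 were in common (60%, 46.4% and 54.4% of either list).

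The gap between 4-cell replicates 2 and 3 and GV oocytes was widest where GV oocytes were strongest. In the strongest of 5 bins of the 4982 regions the median fold enrichment was 7.49, 7.24 and 6.72 in GV oocytes and 7.35, 5.42 and 4.78 in 4-cell embryos. In the weakest bin it was 4.18, 3.93 and 3.78 in GV oocytes and 4.23, 3.81 and 3.82 in 4-cell embryos. The bins were made from the GV oocyte values, which are therefore selected to be high in the upper bin, and enrichments too low to be called as a peak are missing.

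**Figure D3:**
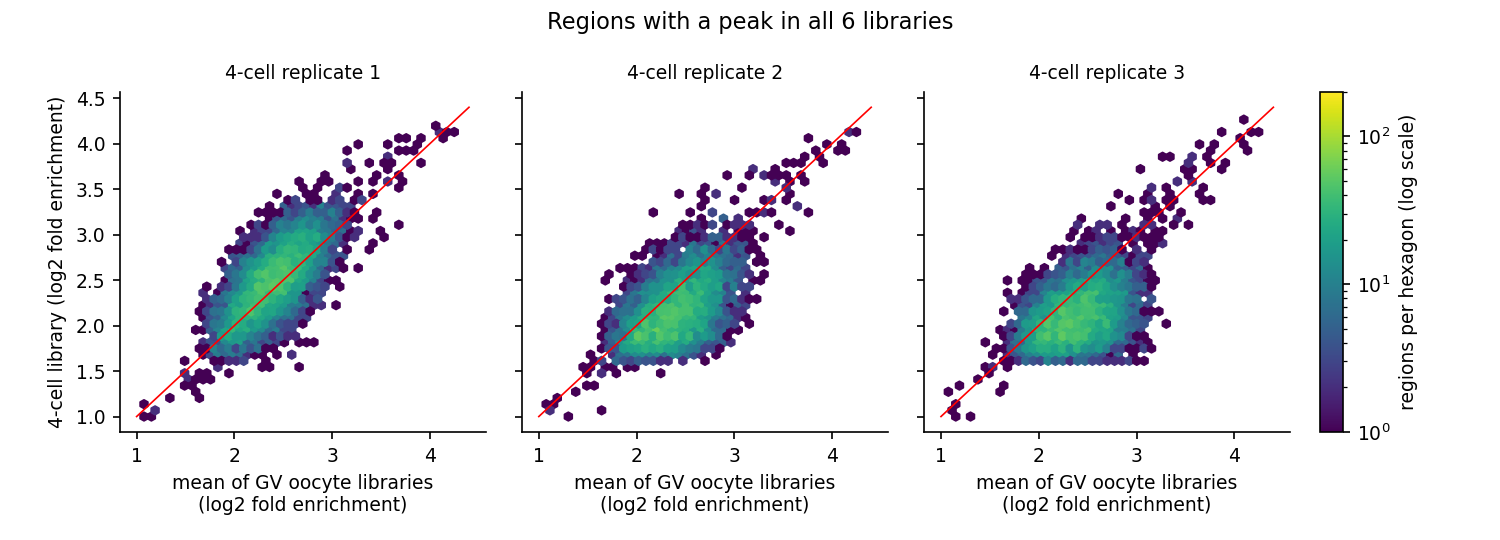
Log2 fold enrichment in each 4-cell library against the mean of the 3 GV oocyte libraries, for the 4982 regions with a peak in all 6 libraries, with the number of regions per hexagon as colour on a log scale and the line of equal values in red. The cloud of 4-cell replicate 1 lies along the line, and those of 4-cell replicates 2 and 3 fall below it where GV oocytes are strong.

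The height of the regions with a peak in all 6 libraries was tested with the median of each library set equal, which removed a shift of -0.14 in log2 fold enrichment. Regions that lack a peak in any library are left out of this test. limma gave 1 region higher in 4-cell embryos (0.0201% of 4982) and 0 higher in GV oocytes (0%) at an adjusted p of 0.05. Of the 4982 regions, 610 had an unadjusted p under 0.05, 348 of them higher in 4-cell embryos and 262 in GV oocytes. These unadjusted counts include regions that pass by chance, and they are not read as a result. The called region, 1335 bp on an unplaced scaffold, had a fold enrichment of 5.33, 5.52 and 5.27 in GV oocytes and 11.1, 10.9 and 9.16 in 4-cell embryos (log2 difference 1.10, SE 0.18, limma adjusted p = 0.00749). It was higher in all 3 4-cell libraries, and it was the 1 region of 4982 that differed by more than 1 on the log2 scale. The 5th and 95th percentiles of the log2 difference were -0.37 and 0.40.

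The number of limma calls moved with centring and with the libraries used. Without centring, 0 regions were higher in 4-cell embryos and 1 was higher in GV oocytes. Without 4-cell replicate 1, 35 of the 5037 regions fitted were higher in 4-cell embryos and 6 were higher in GV oocytes. Regions higher in 4-cell embryos numbered 0, 3 and 8 without GV oocyte replicates 1, 2 and 3 and 0 and 2 without 4-cell replicates 2 and 3, and 1 region was higher in GV oocytes without GV oocyte replicate 3. Counted without a test over the 4982 regions, the centred values of the stages did not overlap at 476 regions higher in 4-cell embryos (9.55%) and 350 higher in GV oocytes (7.03%).

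The regions of chromosomes 1 to 29 and X with the largest differences among those without overlap are given as a description, chosen after their values had been seen, since they did not pass the adjustment in limma (adjusted p = 0.0732 or above). Fold enrichment at chr1:134675249-134675718 was 2.90, 3.84 and 3.20 in GV oocytes and 4.95, 5.85 and 5.60 in 4-cell embryos. At chr15:40852153-40853142 it was 4.38, 4.50 and 4.59 against 7.66, 9.42 and 5.57. The regions higher in GV oocytes were led by chr14:19865279-19866932, 1654 bp wide, with 7.36, 8.02 and 5.86 in GV oocytes and 3.43, 3.64 and 3.54 in 4-cell embryos. All of its 4-cell values were far below the lowest GV oocyte value and below the median of their own lists (3.93, 3.80 and 3.81). Values too low to be called as a peak cannot enter, so that their closeness shows no agreement of replicates. Next came chr16:51929500-51930048, with 8.25, 9.95 and 7.84 against 6.95, 4.18 and 3.31.

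Regions found in all libraries of 1 stage and none of the other were unequally divided. A peak in all 3 GV oocyte and no 4-cell library was found at 4168 of the 104929 regions (3.97%), and a peak in all 3 4-cell and no GV oocyte library at 257 (0.245%). Without 4-cell replicate 1 the numbers were 9015 and 530. Without GV oocyte replicates 1, 2 and 3 the GV oocyte list grew to 7541, 6654 and 6873, and without 4-cell replicates 2 and 3 the 4-cell list grew to 822 and 1609. These counts depend on the length of the lists and on how far the 3 lists of a stage agree. The mean Jaccard index was 0.311 among GV oocyte and 0.147 among 4-cell lists, and the part of this agreement was not tested. For length, the same number of top peaks in each list was also taken, which was chosen after the data had been seen. Of 40831 merged regions, 925 (2.27%) then had a peak in all 3 GV oocyte and no 4-cell library and 327 (0.801%) in all 3 4-cell and no GV oocyte library.

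On chromosomes 1 to 29 and X the strongest of the 4168 regions were of moderate height. At chr19:58312871-58313197 fold enrichment was 8.73, 9.41 and 6.84 (mean 8.33 ± 1.33), and a peak was found in 1 of 3 2-cell and 1 of 3 2-cell TBE libraries and in all 3 libraries of 8-cell embryos and of morula. At chr14:80442348-80442780 it was 7.94, 8.30 and 6.46 (7.57 ± 0.972), with a peak in no 2-cell library, 2 of 3 2-cell TBE libraries, 1 of 3 4-cell TBE libraries and every 8-cell and morula library. The region chr21:61723903-61724212, with 7.45, 6.87 and 9.83 (8.05 ± 1.57; mean ± SD, n = 3 each), had no peak in any 2-cell, 8-cell or TBE library, and peaks in 2 morula libraries and 1 ICM library. Over the whole list, 39.8%, 35.2% and 40.9% of regions had a peak in the 8-cell libraries. Of all 33347 GV oocyte regions, 64.7%, 60.9% and 63.5% had a peak there.

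Each 8-cell library had a peak at most of the 257 regions with a peak in every 4-cell and no GV oocyte library, but at a lower share than of all 4-cell regions. The shares of these regions with a peak in the 8-cell libraries were 75.5%, 69.6% and 73.5%. Of all 15117 4-cell regions, 85.4%, 81.3% and 83.2% had a peak there, and these lists held 125253, 128958 and 156569 peaks. In 4-cell TBE libraries the shares were 61.9%, 12.8% and 8.17%, so that TBE replicate 1 alone had most of them, while 2-cell libraries had 1.17%, 2.33% and 16.0%. On chromosomes 1 to 29 and X the strongest was chr9:88604703-88605064, with a fold enrichment of 7.48, 5.12 and 6.39 in 4-cell embryos, and of the 3 strongest there it alone had a peak in all 3 4-cell TBE libraries. At chr24:27995837-27996175 fold enrichment was 8.11, 4.82 and 5.48, and at chr18:61589794-61590162 it was 6.60, 6.26 and 5.20. Each of these 3 regions had a peak in every 8-cell, 8-cell TBE and morula library.

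Peaks were spread differently over the chromosomes. As a share of covered length, 9 of 30 chromosomes (30%) were higher in every 4-cell than in every GV oocyte library, namely 1, 2, 4, 5, 6, 8, 9, 10 and 28, and 9 (30%) were higher in every GV oocyte library, namely 13, 15, 18, 19, 23, 24, 25, 29 and X. Chromosome 19 held 4.58%, 4.86% and 4.41% of the covered length in GV oocytes and 3.48%, 3.32% and 3.70% in 4-cell embryos. Chromosome 25 held 2.61%, 2.91% and 2.44% against 2.18%, 2.13% and 2.01%. Conversely chromosome 4 held 3.40%, 3.14% and 3.23% in GV oocytes and 4.04%, 4.08% and 4.39% in 4-cell embryos, and chromosome 1 held 4.24%, 4.08% and 4.34% against 5.11%, 5.38% and 5.21%. Apart from 28, the chromosomes higher in 4-cell embryos were among those numbered 1 to 10, the larger autosomes, and those higher in GV oocytes were X or numbered 13 and above. Without 4-cell replicate 1 there were 10 chromosomes in each direction.

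With the same number of top peaks in each list, 5 chromosomes were higher in 4-cell embryos, of which 1, 4, 8 and 9 were also so in the full lists. There were 8 chromosomes higher in GV oocytes, 13, 15, 18, 19, 23, 25, 29 and X, and all 8 were so in the full lists. Unplaced scaffolds held 1.82%, 2.12% and 2.07% of the covered length in GV oocytes and 2.71%, 3.17% and 3.80% in 4-cell embryos (exact permutation test, two-sided, p = 0.1), and the stages did not overlap with equal numbers of peaks either.

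The X chromosome held less of the covered length in 4-cell embryos. It held 2.91%, 2.71% and 3.33% in GV oocytes and 2.58%, 1.90% and 2.26% in 4-cell embryos, a difference of -0.737 percentage points with no overlap (exact permutation test, two-sided, p = 0.1). With the same number of top peaks it held 2.65%, 2.64% and 3.21% against 2.21%, 2.03% and 2.26%. Its log2 ratio of mean shares in the full lists was -0.41, near that of chromosome 19 (-0.40). Among the shared GV oocyte regions 2.29% lay on X, among the absent ones 3.22%, and among 4-cell regions absent from GV oocytes 1.40%.

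**Figure D4:**
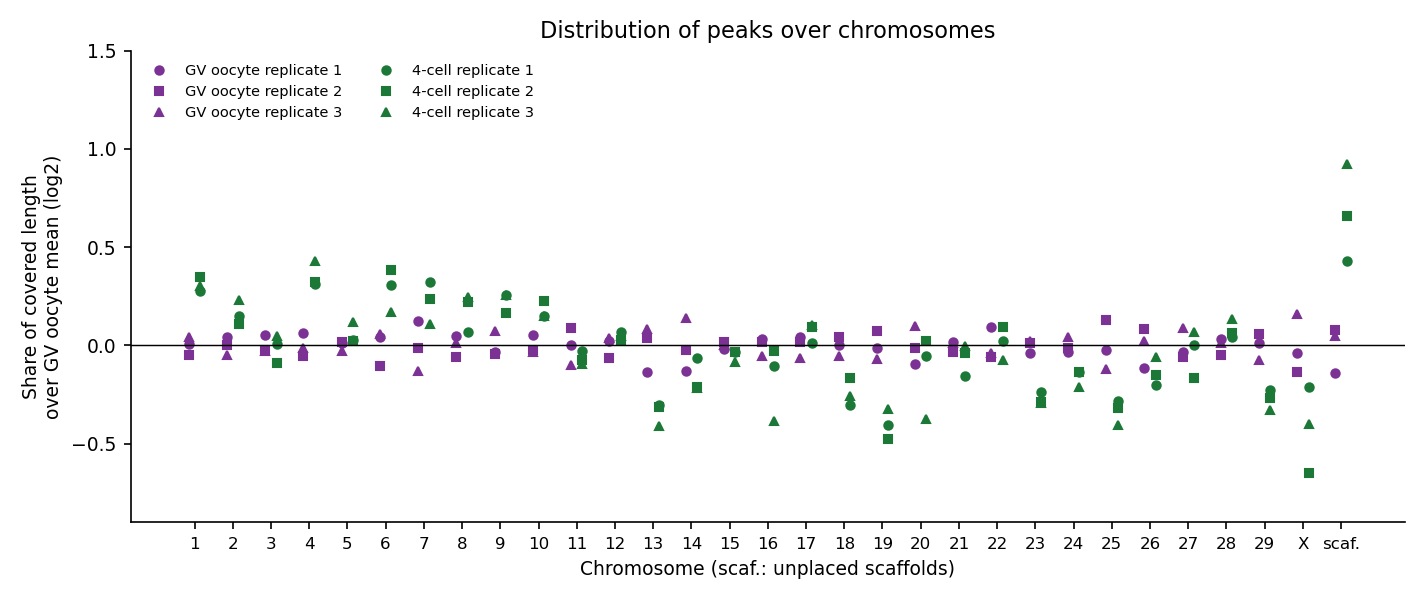
Share of covered length on each chromosome and on unplaced scaffolds (scaf.) in each library, as log2 over the mean of the 3 GV oocyte libraries, with GV oocytes in purple, 4-cell embryos in green and replicates 1, 2 and 3 as circles, squares and triangles. Chromosomes 13, 19, 25 and X lie below 0 in every 4-cell library, and 1, 4 and 9 lie above.

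GV oocyte peaks were more often in densely covered windows of the genome. Chromosomes 1 to 29 and X were divided into 2642 windows of 1 Mb, and the 264 windows with most peaks in morula, a stage outside the comparison, were taken as dense, a measure chosen after the data had been seen. They held 23.7%, 23.0% and 21.0% of GV oocyte peaks and 19.7%, 18.1% and 18.1% of 4-cell peaks, with no overlap (difference -3.94 points, exact permutation test, two-sided, p = 0.1). The difference was -5.68 points with the same number of top peaks in each list, and under a stricter −log10 q of 3 or more it was -1.36 points and the stages overlapped. In the full lists 122, 120 and 66 windows had no peak in GV oocytes and 16, 54 and 111 in 4-cell embryos, and the stages overlapped (exact permutation test, two-sided, p = 0.2). At the same number of peaks the numbers were 406, 444 and 343 against 261, 132 and 111, with no overlap (p = 0.1, same exact test).

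Fewer of the 4-cell regions absent from GV oocytes lay in dense windows. Dense windows held 24.8% of the shared and 24.2% of the absent GV oocyte regions, but 14.0% of the 4-cell regions absent from GV oocytes (24.5%, 24.4% and 12.7% without 4-cell replicate 1). Regions of 4-cell embryos absent from GV oocytes lay a median of 26.1 kb from the nearest GV oocyte region, and 75 of 3630 lay within 1 kb. Absent GV oocyte regions lay a median of 44.6 kb from the nearest 4-cell region. These medians were 30.3 and 116 kb without 4-cell replicate 1, and 19 of 795 4-cell regions lay within 1 kb.

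The share of GV oocyte regions found in 4-cell embryos varied among windows, and the part of counting error in this was not tested. In the 592 windows with at least 20 GV oocyte regions the median share found in 4-cell embryos was 30.0%, with 13.8% and 47.4% as the 10th and 90th percentiles, although regions per window of the stages had a Pearson r of 0.808 over all 2642 windows. In 4 of the 592 windows no region was shared. The median share was 12.3% without 4-cell replicate 1, with 3.45% and 23.8% as the percentiles, r was 0.679, and 41 windows had no shared region. The first of the 4, chr23:51000001-52000000, had 31 GV oocyte regions, with 42, 43 and 40 peaks in GV oocyte and 28, 6 and 5 in 4-cell libraries. In chr28:34000001-35000000 there were 23 such regions, with 26, 40 and 31 peaks against 18, 4 and 1. Both windows had more peaks in 4-cell replicate 1 than in replicates 2 and 3. The 8-cell libraries had 28, 37 and 21 peaks in the first and 35, 37 and 43 in the second.

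At the other end, 17 of 26 GV oocyte regions (65.4%) were shared in chr8:59000001-60000000, where GV oocyte libraries had 29, 28 and 28 peaks and 4-cell libraries 26, 18 and 12. In chr1:130000001-131000000 14 of 22 were shared, with 23, 26 and 26 peaks against 31, 21 and 16. The most 4-cell regions absent from GV oocytes lay in chr29:5000001-6000000, 13 of 23, with 19, 26 and 29 peaks in GV oocytes and 36, 31 and 14 in 4-cell embryos. Next came chr24:59000001-60000000, 11 of 18, where GV oocytes had 30, 35 and 51 peaks and 4-cell embryos 37, 24 and 14. In chr15:50000001-51000000 11 of 14 4-cell regions were absent from GV oocytes, and peaks numbered 8, 6 and 10 against 29, 16 and 11. Of these 3 windows the last had more peaks in every 4-cell than in every GV oocyte library, and the others did not.

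The classes of regions differed at the other stages of development. Shared GV oocyte regions had a peak in 8-cell libraries at 94.2%, 91.3% and 92.1%, absent ones at 49.1%, 44.9% and 48.4%, and 4-cell regions absent from GV oocytes at 57.9%, 50.2% and 55.5%. In morula libraries the shares were 92.2%, 96.0% and 93.9% for shared regions, 50.7%, 64.7% and 58.6% for absent ones and 50.9%, 68.4% and 58.3% for the 4-cell regions. In ICM libraries they were 91.5%, 87.4% and 93.6%, then 46.9%, 42.0% and 53.2%, then 43.3%, 41.5% and 50.8%. Shared regions were thus found at 87.4% or more in each of these libraries, and the other classes at 41.5% to 68.4%. The lists of these libraries held 84773 to 207459 peaks. Shared regions were also stronger and wider, and 8-cell shares rose with strength and width. The part of strength, width and list length in the order of the classes was not tested. Without 4-cell replicate 1, the shares in 8-cell libraries were 97.0%, 95.5% and 95.8% for shared regions, 58.6%, 54.4% and 57.4% for absent ones and 60.3%, 53.1% and 58.1% for the 795 4-cell regions outside GV oocyte regions.

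Before the 4-cell stage and without transcription the libraries differed more. In 2-cell libraries a peak was found at 5.06%, 6.25% and 23.0% of shared GV oocyte regions and at 0.380%, 0.307% and 2.53% of absent ones. In 4-cell TBE, shared regions had a peak at 79.2%, 24.2% and 15.4%, and 4-cell regions absent from GV oocytes at 37.5%, 4.82% and 2.67%. The 4-cell TBE libraries were thus far apart in both classes, and replicate 1 was again the fullest, with 32260 peaks against 4166 and 3094. In 8-cell TBE a peak was found at 98.0%, 99.2% and 89.6% of shared regions, 57.7%, 76.8% and 35.1% of absent ones and 76.7%, 93.4% and 57.4% of 4-cell regions absent from GV oocytes, and the lists held 90890, 247513 and 50090 peaks. With 4-cell replicate 1 left out, shared regions had a peak at 8.74%, 11.6% and 35.5% in 2-cell, 90.6%, 38.4% and 25.8% in 4-cell TBE and 99.2%, 99.6% and 94.7% in 8-cell TBE libraries.

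Ordered by the stage at which they were next found in at least 2 libraries, 628 of the GV oocyte regions were found by the 2-cell stage, 10896 (32.7%) with 4-cell embryos and 10420 (31.2%) by the 8-cell stage. Another 3415 were next found in morula and 649 in ICM. With 4-cell replicate 1 left out, 4-cell regions needed a peak in both remaining libraries. Then 4727 (14.2%) came with 4-cell embryos and 16053 (48.1%) by the 8-cell stage, and the counts were no longer near-equal. This order was not followed without the other 4-cell libraries. With all libraries, median GV oocyte fold enrichment was 5.84 for regions of the 2-cell, 4.81 of the 4-cell and 4.18 of the 8-cell stage. It was 3.88 for those of morula, 3.91 for those of ICM and 3.81 for the 7339 found at none of these stages. Libraries of these stages differed in their number of peaks, and the part of depth in this order was not tested.

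**Figure D5:**
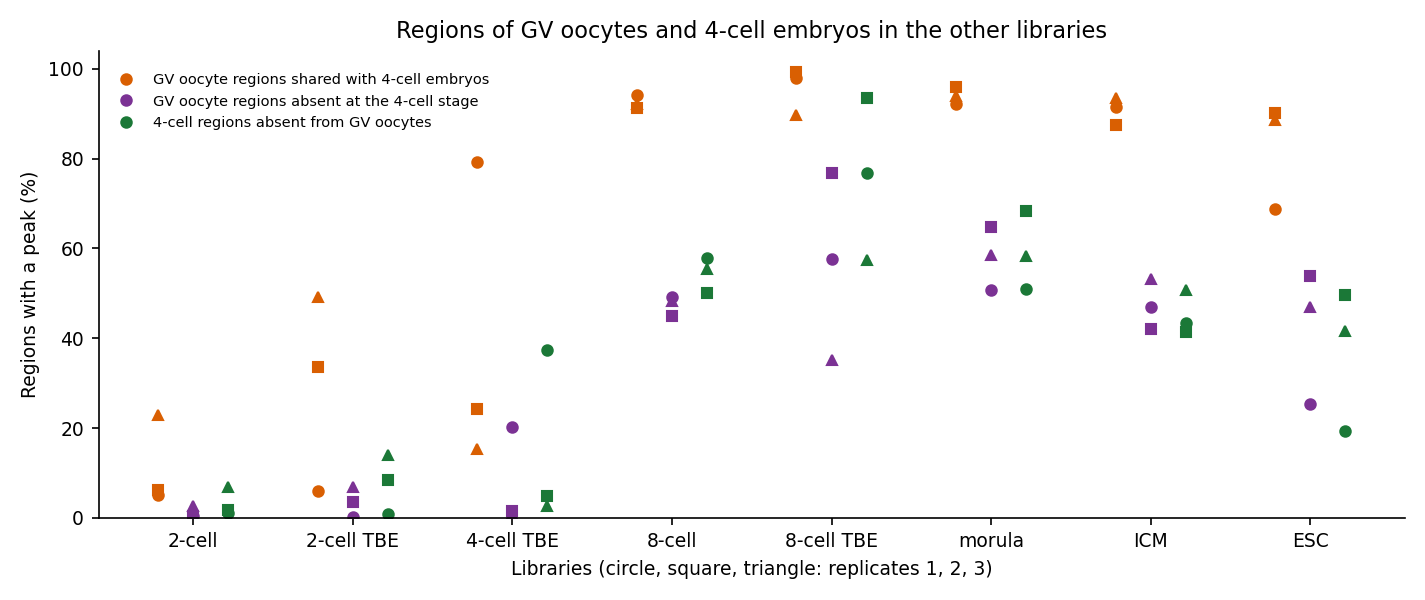
Share of regions with a peak (%) in each library of the other groups, for GV oocyte regions shared with 4-cell embryos (orange, n = 11511), GV oocyte regions absent at the 4-cell stage (purple, n = 21836) and 4-cell regions absent from GV oocytes (green, n = 3630), with replicates 1, 2 and 3 as circles, squares and triangles. Shared regions lie at 91.3% or above in the 8-cell libraries, and the other classes between 44.9% and 57.9%.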

How the data were processed

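ATAC-seq peak lists of 6 libraries were compared, with the other 24 as reference. The authors trimmed reads with Trim Galore, aligned with BWA 0.7.17 to ARS-UCD1.2, removed duplicates with PicardTools, filtered with SAMtools 1.7 and called broad peaks per replicate with MACS2 2.1.1 at a q value of 0.05, as their processing notes state. The authors computed fold enrichment as a ratio to the local background, and −log10 p and −log10 q, as means over a peak. The deposited score was not used.

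Python 3.11.15 (numpy 2.4.6, pandas 2.3.3, scipy 1.17.1, matplotlib 3.10.9) and limma 3.58.1 in R 4.3.3 were used. Background levels were solved with a tolerance of 0.0001 on −log10 p. limma was fitted with a trend to log2 fold enrichment, weighted by overlap and centred on each library's median, at regions with a peak in all 6 libraries, with Benjamini-Hochberg adjustment over all of them. Intervals are Clopper-Pearson. Named regions, on chromosomes 1 to 29 and X, are the 3 with the largest mean fold enrichment of each set; those below the limma threshold and the windows were chosen after their values were seen. The methods were tested on simulated data. Libraries were not paired. The members and lists were chosen with earlier results of these data known. Promoters, genes and motifs were left out, since no genome or annotation of ARS-UCD1.2 was used.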

Additional observations from a re-analysis of the deposited data

How the results depend on the processing

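Of 154 alternatives over 12 results, 108 left the direction and call of a difference or ratio as reported, or a count near its reported value. None of these labels means an equal value. With the same number of top peaks, the held-out difference for 4-cell regions fell from 12.9 to 0.260 points and counts among the 108. Of all alternatives, 0 reversed the direction of a difference or ratio. Counts were given no direction, and 33 alternatives moved a count. The causes of the changes below were not tested, apart from what an alternative leaves out. Under a stricter −log10 q of 3 or more there were 3389 shared GV oocyte regions, 10454 absent ones, 715 4-cell regions absent from GV oocytes and 3 limma calls higher in 4-cell embryos, and the dense-window difference was -1.36. The same number of top peaks gave 6229 shared and 6076 absent GV oocyte regions. Regions from any replicate gave 27179, 46846 and 31167 for the 3 classes, and regions from all 3 replicates 4946 shared and 786 4-cell regions absent from GV oocytes. limma calls higher in 4-cell embryos were 0 on autosomes, 4 with a peak in at least 2 libraries of each stage and 0 without centring, and those higher in GV oocytes were 1 without centring and 1 with quantile normalization.

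Alternatives at like background level, chosen after seeing the data, gave covered length ratios of 0.656 and 0.270 and width differences of -58.5 and -99.5 bp.

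The replicate block gave 9 limma calls higher in 4-cell embryos and 1 in GV oocytes, and a width difference of -54 bp in the same direction in every same-numbered pair (exact sign-flip test, p = 0.25, the smallest it allows). Deviations of same-numbered libraries from their stage mean correlated at 0.16, 0.047 and 0.016 across regions. For GV oocyte replicates 2 and 3 another number correlated more (0.051 and 0.072), so the numbers were not read as pairs.

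Without 1 library in turn, shared regions ranged from 5287 to 10529, absent GV oocyte regions from 13287 to 28060 and 4-cell regions absent from GV oocytes from 795 to 4806. Covered length ratios ranged from 0.369 to 0.728, width differences from -79.7 to -22.2 bp, similarity differences from 0.0186 to 0.141, X differences from -0.902 to -0.564 and dense-window differences from -4.74 to -3.36. Held-out differences ranged from -47.0 to -26.8 for GV oocyte and from 4.98 to 14.4 for 4-cell regions, where a stage that lost a library had its regions from a single list. limma calls ranged from 0 to 35 and from 0 to 6. Planned promoter, motif and marker-gene measures were not run. Depth limits what an absent peak shows.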

Other observations

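ESC, a cultured cell type, lie outside the developmental stages followed here. In the 3 ESC libraries a peak was found at 68.8%, 90.0% and 88.5% of GV oocyte regions shared with 4-cell embryos, at 25.4%, 54.0% and 47.0% of those absent at the 4-cell stage, and at 19.4%, 49.7% and 41.6% of 4-cell regions absent from GV oocytes. The order of shared above unshared regions was found in each library.

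At the 2-cell stage, TBE libraries had a peak at 5.89%, 33.6% and 49.3% of the shared GV oocyte regions and control libraries at 5.06%, 6.25% and 23.0%. Embryos of a collection were divided between the treatments, but whether the replicate numbers mark collections is not stated. The libraries overlapped. Compared by number, which was chosen after the data had been seen, TBE was higher by 0.825, 27.4 and 26.3 points (exact sign-flip test, p = 0.25, the smallest for 3 pairs). For absent GV oocyte regions the differences were -0.110, 3.28 and 4.42 points, and for 4-cell regions absent from GV oocytes -0.248, 6.83 and 6.94 points (p = 0.5 each, same exact test). The lists differed in length, with 925, 8118 and 11083 peaks in TBE and 1002, 1262 and 6440 in control embryos.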
